A study of Caenorhabditis elegans with 16 samples.

Results

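The comparison described here sets Caenorhabditis elegans that carry a glp-1 mutation, and so lack a germline, against TU3401 worms that have one. It uses 8 samples of the 16 in the series, chosen by their labels alone: 4 of the glp-1 group and 4 of TU3401, all from whole bodies on day 1 of adulthood. The glp-1 worms are labelled as strain SHU47 with genotype glp-1, and their titles join glp-1 to TU3401. The TU3401 worms have no entry for genotype. Worms of both groups were kept at 20 °C and fed HT115 (DE3) bacteria carrying the L4440 vector, with the RNAi that the titles call Luc, so the bacteria and the RNAi are shared by both groups. The labels used here give neither the glp-1 allele nor the temperature at which germline growth was blocked. As known from the field, TU3401 is a sid-1 mutant in which the importer of double-stranded RNA is restored under the neuronal unc-119 promoter, which directs RNAi from food to neurons. Whether replicates came from separate cultures is not stated in the labels, and p-values then measure the spread between these libraries, which may be technical.

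GLP-1 is a Notch receptor on the germ cells of the worm gonad. The distal tip cell presents Notch ligands to it, and the signal keeps germline stem cells dividing and out of meiosis. Worms without this signal grow an adult body and somatic gonad with almost no germ cells, make no oocytes or embryos, store more fat and live longer, which made glp-1 mutants a standard model of how the germline acts on the ageing body.

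Reads recovered from the deposited values (see the processing notes) came to between 18818680 and 27228111 per library. In the glp-1 libraries glp-1 itself was at 3.51, 3.96, 2.91 and 2.78 RPKM (reads scaled to gene length and library depth), against 70.3, 75.6, 69.2 and 69.4 RPKM in TU3401. All 5 germline markers and all 4 oocyte markers fell, and the summed level of the oocyte markers was between 3.82 and 4.43 RPKM in glp-1, against 1794 to 1885 RPKM in TU3401. The 4 sperm markers, spe-9, spe-11, gsp-3 and gsp-4, were near 0 in both groups, with a summed level of 0.982 to 1.73 RPKM in glp-1 and 0.387 to 1.43 RPKM in TU3401. Of the markers of the body, all of those tested for body wall muscle (4), pharynx muscle (4), coelomocytes (3), the gonadal sheath and spermatheca (5) and the uterus (5) rose, and 3 of 4 neuron, 3 of 5 intestine and 2 of 3 glia markers did. Markers of the pharyngeal gland (1 up, 2 down of 4), hypodermis (1 up, 1 down of 3), seam (1 up, 1 down of 2) and excretory system (1 up, 2 down of 4) were mixed, and lag-2, the marker of the distal tip cell, fell. RPKM are shares of a library, so when germline RNA is missing every other transcript takes a larger share. In whole bodies, fewer cells of a type and less RNA per cell cannot be told apart.

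Of 13563 genes with a mean of at least 1 RPKM over the 8 libraries, 5626 (41.5%) were higher and 6253 (46.1%) lower in glp-1, so that 87.6% of genes passed the threshold, an adjusted p under 0.05 by limma on log2(RPKM + 1). With such a background, a change by itself sets no gene apart, and the sizes carry the description. The median log2 fold change over all tested genes was -0.06. With quantile scaling it was 0.42, and with median-ratio scaling -0.11, so a median for a gene group near these values has no direction of its own. Falls went much further than rises. A fall of at least 16-fold was seen in 869 genes and a rise of that size in 35, while 211 genes fell and 7 rose at least 64-fold. Folds on this scale understate the change of low genes.

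The genes that fell at least 8-fold, 1698 of them, held 0.770% ± 0.035 of reads in glp-1 and 20.9% ± 0.30 in TU3401 (SD, n = 4 each). These genes were picked by the fold itself, so the shares only describe them. Of the 1747 genes at 100 RPKM or more in TU3401, 141 (8.07%) were below 1 RPKM in glp-1. In the other direction, of 1379 genes at 100 RPKM or more in glp-1, 2 were below 1 RPKM in TU3401, scl-20 and H39E23.3. No read fell in any of the 4 glp-1 libraries for 236 tested genes, 96 of which had at least 10 RPKM in TU3401. The highest of these in TU3401 was mex-6, an RNA-binding protein that sets up embryonic polarity, with 0 reads in the glp-1 libraries and 48361 in TU3401, at 383 RPKM. With 3 reads over the 4 libraries taken as the floor, mex-6 was at least 17020-fold lower in glp-1. The cyclin gene cyb-2.1, with 0 reads in glp-1 and 17491 in TU3401, was at least 6156-fold lower, and pgl-3, a scaffold of germ granules, with 0 and 27862 reads, at least 9806-fold lower. Bounds of this kind cover counting error only, and mex-6 and cyb-2.1 were named after their values were seen. Of the 54 tested genes without a read in TU3401, 45 were piRNA loci (21-base small RNA genes), where 1 read is worth 1.75 to 2.53 RPKM, and 2 reached 10 RPKM in glp-1: D1086.9, with 3543 reads, and scl-19, with 650, the first of them named after its values were seen.

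**Figure D1:**
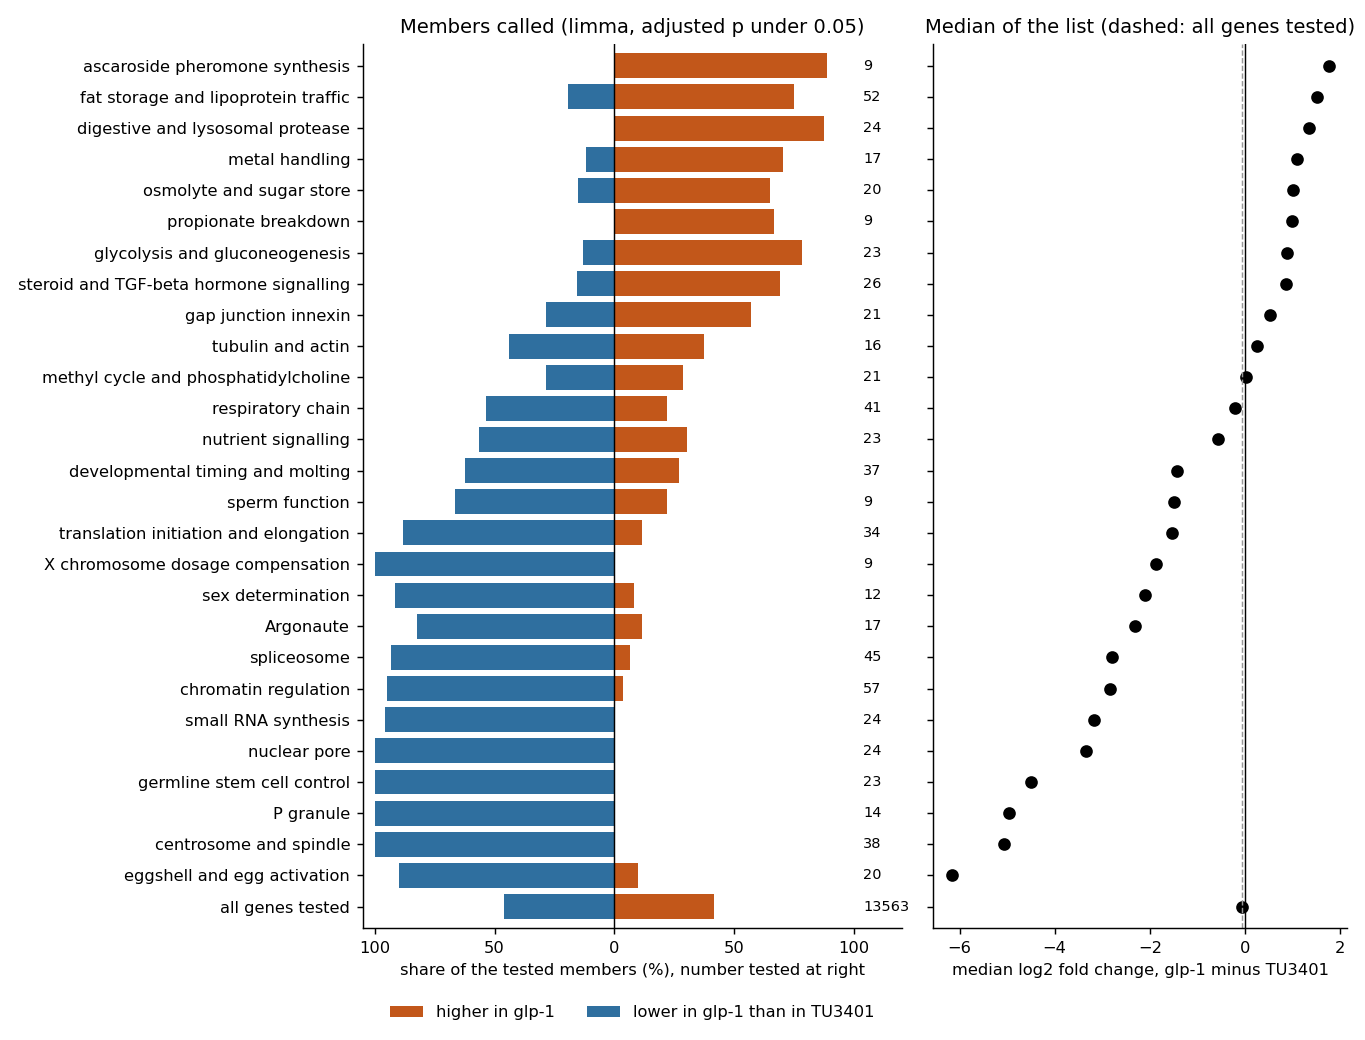
Share of the tested members of 27 gene lists that were higher (right) or lower (left) in glp-1 than in TU3401, with the number tested at the right, and, in the other panel, the median log2 fold change of each list; the lowest row and the dashed line give all 13563 tested genes. Lists of germline regulation, cell division and RNA processing lie to the left, with medians down to -6.16, and lists of digestion, fat and pheromone synthesis lie to the right, with medians up to 1.76.

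The circuit around the GLP-1 receptor fell in every tested member. All 23 tested genes that control germline stem cells fell, with a median log2 fold change of -4.50, and 12 of them were below 1 RPKM in glp-1, so they entered the test through TU3401. The Notch target sygl-1, which keeps stem cells undifferentiated, was at 0.151, 0, 0 and 0.118 RPKM in glp-1, against 152, 131, 133 and 123 RPKM in TU3401 (log2 fold change -6.99, SE 0.09, adjusted p = 2.16e-11). The other stem cell target of Notch, lst-1, was at 4.08, 2.22, 4.66 and 6.44 RPKM in glp-1, against 103, 125, 116 and 117 RPKM in TU3401 (log2 fold change -4.50, SE 0.22, adjusted p = 7.4e-08). The groups did not overlap for either gene, but lst-1 kept a measurable level in every glp-1 library and sygl-1 was at or near 0.

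Their partners, the RNA-binding proteins fbf-1 and fbf-2, were at 0.00636 ± 0.0127 and 0.799 ± 0.28 RPKM in glp-1, against 16.4 ± 2.36 and 11.5 ± 1.57 RPKM in TU3401 (SD, n = 4 each). The related genes puf-5 (log2 fold change -8.93, SE 0.11), puf-3 (-8.59) and puf-11 (-8.41), which act in oocytes, fell too, as did gld-1 (-8.12), which drives entry into meiosis. On the log2(RPKM + 1) scale a gene near 0 in glp-1 can fall by no more than its TU3401 level allows, so these falls do not rank the genes. The ligand of the niche, lag-2, is made by the distal tip cell, which is somatic, and was at 0.233, 0.426, 0.349 and 0.152 RPKM in glp-1, against 5.89, 4.43, 2.82 and 3.15 RPKM in TU3401 (log2 fold change -1.94, SE 0.19, adjusted p = 1.02e-05). Its 4 glp-1 values all lie below its 4 TU3401 values. The second Notch receptor of the worm, lin-12, had the smallest change of the list, at 2.70 ± 0.563 RPKM in glp-1 and 5.43 ± 0.936 RPKM in TU3401 (log2 fold change -0.80).

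Sex determination genes fell in 11 of 12 cases (median -2.11), and the exception was the terminal regulator of the pathway in the body. The zinc finger factor tra-1, which sets female fate in the body, was at 22.6, 27.9, 19.7 and 20.6 RPKM in glp-1, against 14.7, 16.6, 14.4 and 12.4 RPKM in TU3401 (log2 fold change 0.60, SE 0.13, adjusted p = 0.00147). Every glp-1 value of tra-1 was above every TU3401 value. Its upstream inhibitors and the sperm switch went the other way: fem-3 had a log2 fold change of -5.52, fog-2 of -4.61 and fog-1 of -2.68. The X chromosome dosage compensation complex lowers transcription of the X in hermaphrodite bodies, and all 9 of its genes fell (median -1.87), from the condensin subunit mix-1, at 4.05 ± 0.502 RPKM in glp-1 and 57.8 ± 2.69 RPKM in TU3401, to sdc-2, at 1.76 ± 0.204 and 4.38 ± 0.375 RPKM. Some condensin subunits of this complex, mix-1 among them, also serve in chromosome segregation.

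Genes of germ granules and small RNA synthesis fell almost without exception, while a pair of Argonautes rose. All 14 tested P granule genes fell (median -4.97), and 8 of them were below 1 RPKM in glp-1 and entered the test through TU3401. Among them was pgl-1, with 0.0176 ± 0.0131 RPKM in glp-1 and 221 ± 9.10 RPKM in TU3401. Of 24 genes of small RNA synthesis 23 fell, and none rose (4 were below 1 RPKM in glp-1). With quantile scaling 22 fell and 1, an RNA-dependent RNA polymerase gene, rose. The Argonautes, the proteins that carry small RNAs to their targets, split: 14 of 17 fell and 2 rose, with 6 of the 17 below 1 RPKM in glp-1. The germline Argonaute wago-1 was at 0.656 ± 0.134 RPKM in glp-1 and 345 ± 14.1 RPKM in TU3401 (log2 fold change -7.71), and hrde-1, which carries silencing to the next generation, fell by 7.31 on the log2 scale.

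Against that trend sago-1, an Argonaute of the secondary RNAi response in the body, was at 66, 78.0, 82.9 and 83.0 RPKM in glp-1, against 21.8, 25.5, 25.5 and 24.5 RPKM in TU3401 (log2 fold change 1.63, SE 0.09, adjusted p = 1.78e-07). The Argonaute vsra-1, listed in the table as C04F12.1, had a log2 fold change of 0.70 (SE 0.13, adjusted p = 0.000866). The piRNA Argonaute prg-1 stayed at 21.7 ± 4.60 RPKM in glp-1, against 114 ± 13.7 RPKM in TU3401, while its near copy prg-2 was at 0.0265 ± 0.0307 RPKM in glp-1 and 126 ± 5.89 RPKM in TU3401, and reads of such copies can be split by the counting. The microRNA Argonaute alg-1 fell by 0.51 on the log2 scale but had a log2 fold change of 0.41 with quantile scaling, so its direction depends on the scaling. Primary RNAi depends on rde-1, which was at 11.6 ± 1.08 RPKM in glp-1 and 34.2 ± 1.87 RPKM in TU3401.

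Genes of egg production had the lowest median of the 27 lists. Of 20 genes of the eggshell and egg activation 18 fell (median -6.16), and 10 of the 20 were below 1 RPKM in glp-1. The vitelline layer protein cbd-1 was at 0.0711, 0.0759, 0.0747 and 0.130 RPKM in glp-1, against 614, 608, 644 and 647 RPKM in TU3401 (log2 fold change -9.18, SE 0.06, adjusted p = 1.91e-12). The enzyme gfat-2, which starts the synthesis of the sugar that chitin is built from, fell by 8.81 on the log2 scale, and the chitin synthase chs-1 by 6.11. The 2 members that rose were perm-2, at 3780, 4188, 4038 and 3634 RPKM in glp-1 against 1926, 2078, 1814 and 1848 RPKM in TU3401 (log2 fold change 1.03, SE 0.07), and perm-4, at 4527 ± 282 RPKM in glp-1 and 1965 ± 109 RPKM in TU3401 (log2 fold change 1.2, SE 0.07). Both encode proteins of the eggshell, and for both the groups did not overlap.

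Yolk and its receptor went opposite ways. The oocyte receptor rme-2, which takes up yolk, was at 0.0338, 0.0155, 0 and 0 RPKM in glp-1, against 377, 414, 394 and 402 RPKM in TU3401 (log2 fold change -8.62, SE 0.06, adjusted p = 1.91e-12). The 6 vitellogenin genes, which the intestine makes into yolk, held 17.1%, 13.4%, 17.1% and 15.8% of reads in glp-1, against 6.74%, 6.44%, 7.95% and 7.75% in TU3401. The difference had an exact 2-sided permutation p of 0.0286, the smallest that 4 against 4 libraries can give, and an adjusted p of 0.0286 over 11 gene groups. Every one of the 11 groups gave this p, among them the ribosomal protein, collagen and fat genes below, so it sets none apart. These groups were chosen with earlier results of these data known. With quantile scaling the log2 fold change of vit-2 was -0.15 and that of vit-6 -0.11, neither past the threshold, where the values without it were 1.03 and 0.88.

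Genes of sperm function were mostly below the filter, 18 of the 27 in the table, and of the 9 tested 6 fell and 2 rose. The transcription factor spe-44, which starts the sperm programme, was at 0, 0, 0 and 0.0288 RPKM in glp-1 and at 14.8, 17.1, 15.5 and 16.1 RPKM in TU3401. The protease inhibitor swm-1, a somatic regulator of sperm activation, was at 154, 147, 155 and 148 RPKM in glp-1, against 31.5, 31.3, 31.6 and 30.7 RPKM in TU3401 (log2 fold change 2.23, SE 0.05, adjusted p = 6.02e-10). Both groups of swm-1 were tight, with SDs of 3.88 and 0.419 RPKM.

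Most tested genes of cell division, nuclear transport, chromatin and splicing fell. All 38 tested genes of the centrosome and spindle fell (median -5.07), of which 12 were below 1 RPKM in glp-1 and entered the test through TU3401, with mei-2, a subunit of the meiotic microtubule-severing enzyme katanin, at -7.2 and the kinase air-2 at -6.63. All 24 nuclear pore genes fell (median -3.34), and so did 54 of 57 chromatin regulators (median -2.84). The histone deacetylase hda-5 was an exception, at 35.2 ± 6.38 RPKM in glp-1 and 9.38 ± 2.02 RPKM in TU3401 (log2 fold change 1.81, SE 0.18, adjusted p = 8.1e-06), and the methyltransferase set-30 rose by 1.00 on the log2 scale. Of 45 spliceosome genes 42 fell (median -2.80). The 3 that rose, asd-2 (1.16), sup-12 (0.85) and exc-7 (0.68), are tissue-specific splicing regulators of muscle and neurons, not core parts. Tissue regulators did not rise as a set: of the 7 tested, 3 rose and 4 fell, with a median of -0.32 and a lowest value of -2.50. Of the 3 that rose exc-7 was at 15.9, 16.2, 16.1 and 15.8 RPKM in glp-1, against 9.96, 10.2, 10.1 and 8.33 RPKM in TU3401, where replicate 4 stands apart.

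Translation factors fell in 30 of 34 cases with a smaller median, -1.54. Of the cap-binding proteins, ife-3 fell by 4.18, ife-5 by 3.17 and ife-1 by 3.12 on the log2 scale, while ife-2 had a log2 fold change of 0.26 (SE 0.10, adjusted p = 0.0307). The groups of ife-2 overlap, and with median-ratio scaling it did not pass (adjusted p = 0.0842). All 31 genes of the small and 42 of 44 of the large cytosolic ribosomal subunit fell, with class medians of -0.89 and -0.90, and the 76 ribosomal protein genes together held 3.71% ± 0.317 of reads in glp-1 and 6.77% ± 0.499 in TU3401 (SD, n = 4 each; exact permutation p = 0.0286). The mitochondrial ribosome fell in all 39 large-subunit and all 27 small-subunit genes, with medians of -1.97 and -2.08.

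The chromosomes differed in direction: the shares of reads on the X, IV and V were higher in glp-1, and those on I, II and III were lower. In C. elegans the X is kept silent during much of germ cell development, and genes with germline roles are few on it, as background knowledge. Chromosome X held 26.9%, 24.1%, 26.3% and 25.4% of the reads in glp-1, against 10.8%, 10.6%, 11.7% and 11.3% in TU3401. Chromosome I held 10.8%, 11%, 10.4% and 10.6% in glp-1, against 19.8%, 19.6%, 19.1% and 19.4% in TU3401. The share of the X was 2.31 times that in TU3401 and the share of chromosome I was 0.549 times, with no overlap between groups on either. Chromosome IV held 21% ± 0.454 in glp-1 and 19.2% ± 0.233 in TU3401, and chromosome V held 16.6% ± 0.525 in glp-1 and 14.3% ± 0.153 in TU3401 (SD, n = 4 each). All 6 chromosomes differed (exact permutation p = 0.0286 each, adjusted over 7 tests to 0.0286). This test, like the other exact permutation tests here, regroups the libraries without regard to their replicate numbers, and an exact 2-sided test over 4 pairs could not go below 0.125. Since 5 of the 6 vitellogenin genes lie on the X, the share was also taken without them: it was 14.6% ± 0.275 in glp-1 and 6.50% ± 0.149 in TU3401, a ratio of 2.25.

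Counts of genes went the same way. On the X, 1250 of 1962 tested genes (63.7%) rose and 419 (21.4%) fell, with a median log2 fold change of 0.78. On chromosome I 566 of 2086 (27.1%) rose and 1321 (63.3%) fell, with a median of -1.13, and chromosomes III and II had medians of -0.93 and -0.66. Chromosome IV was near the middle (median -0.03), and chromosome V, which holds many receptor and detoxification genes, had a median of 0.60. With quantile scaling the medians had the same order, between -0.62 on chromosome I and 1.28 on the X, and that of chromosome IV was above 0, at 0.37. The X held 14.8% of the tested genes with a known chromosome, 22.7% of those that rose and 6.84% of those that fell. Falls of at least 8-fold were seen in 71 genes of the X and in 390 of chromosome I. The lowest value on the X, -7.21, compared with -11.28 on chromosome III, that of sip-1, a small heat shock protein of the germline.

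**Figure D2:**
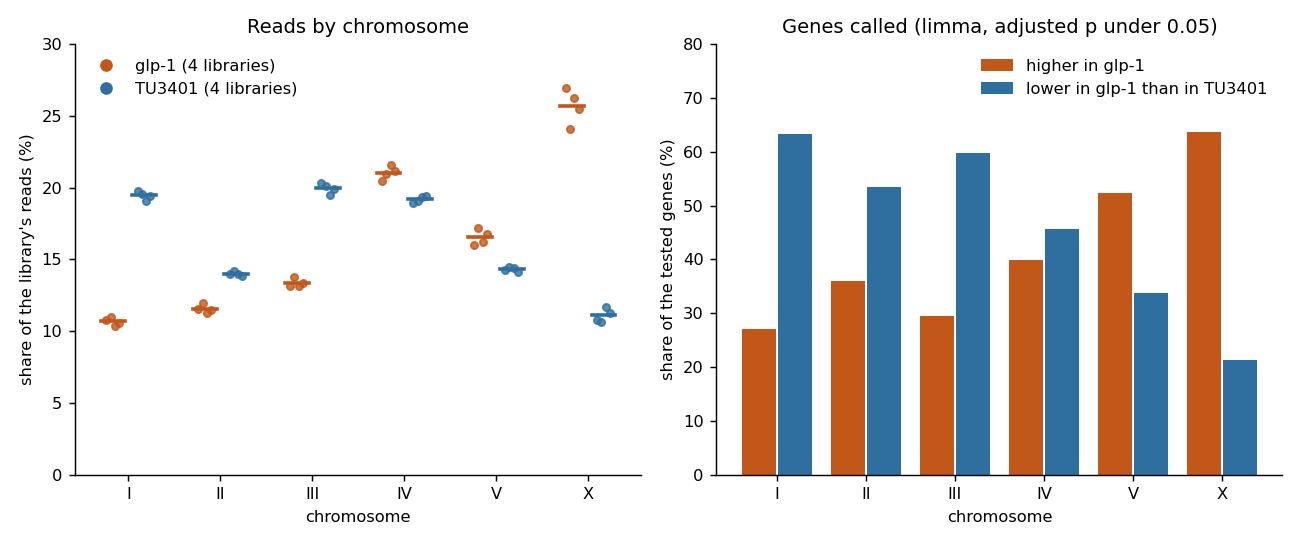
Left: share of each library's reads on each chromosome, 4 glp-1 libraries (left of each pair) and 4 TU3401 libraries, with lines at the means. Right: share of the tested genes of each chromosome that were higher or lower in glp-1. The X has the highest mean share of reads of the 6 chromosomes in glp-1, at 25.7%, and the lowest in TU3401, and it has the largest share of genes that rose, 63.7%.

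Some related genes, which encode forms of the same protein, changed in opposite directions. Among genes whose names differ only after a point, 49 groups, with 126 genes, had at least 2 tested members. In 25 of them all members fell and in 5 all rose, beside 46.1% lower and 41.5% higher of all tested genes, and in 10 called members went opposite ways. Groups with opposite calls were thus fewer than groups in which all members fell. Whether 10 of 49 differs from what unrelated genes would give was not tested. In 8 of these 10 groups a member that rose lay on the X. Of their 16 members that rose 10 lay on the X, and of the 14 that fell 1 did. Among all tested genes with a known chromosome, 22.7% of those that rose and 6.84% of those that fell lay on the X. The opposite calls held in all 10 groups with median-ratio scaling and in 9 with quantile scaling.

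The ribosomal protein pair rpl-11.1 and rpl-11.2 was the widest apart. The gene rpl-11.1, on chromosome V, was at 12.9, 15.5, 14.2 and 13.4 RPKM in glp-1, against 1853, 1859, 1742 and 2034 RPKM in TU3401 (log2 fold change -6.96, SE 0.08). Its partner rpl-11.2, on the X, was at 1296, 1186, 1179 and 1123 RPKM in glp-1, against 505, 464, 505 and 496 RPKM in TU3401 (log2 fold change 1.28, SE 0.07). Of their summed RPKM, rpl-11.1 gave 1.16% ± 0.127 in glp-1 and 79.1% ± 1.33 in TU3401. The pair together reached 0.512 times its TU3401 level in glp-1. The other large-subunit gene that rose was rpl-25.1, also on the X, at 1.37 on the log2 scale, against -2.62 for rpl-25.2 on chromosome I, a pair named after its values were seen.

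Several mitochondrial complexes had such a pair. The core subunit of complex III is encoded by ucr-2.3 on chromosome III, at 0.733 ± 0.311 RPKM in glp-1 and 106 ± 5.79 RPKM in TU3401, and by ucr-2.1 and ucr-2.2 on the X, at 172 ± 10.9 and 73.2 ± 2.88 RPKM in glp-1, against 73.4 ± 2.48 and 28 ± 0.977 RPKM in TU3401 (SD, n = 4 each). The sum of the 3 was 246 ± 8.91 RPKM in glp-1 and 207 ± 5.37 RPKM in TU3401, a ratio of 1.19, and the groups did not overlap. For the ATP synthase subunit b, asb-1 on chromosome III was at 16, 15.2, 18 and 16.3 RPKM in glp-1, against 297, 317, 326 and 365 RPKM in TU3401, and asb-2 on the X was at 421, 433, 428 and 433 RPKM in glp-1, against 138, 138, 174 and 166 RPKM in TU3401. Their sum was 445 ± 5.93 RPKM in glp-1 and 480 ± 43.6 RPKM in TU3401.

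Subunit g of the ATP synthase (asg-1, -1.15; asg-2, 1.4) and the flavoprotein of complex II (sdha-2, -3.06; sdha-1, 1.06, named after its value was seen) divided in the same way, with the second member of each on the X. Over the whole respiratory chain 9 of 41 tested genes rose, 22 fell and 10 did not pass, with a median of -0.22, and both its lowest value, that of ucr-2.3, and its highest, that of asb-2, belong to these pairs. The 14 complex I genes ran from -0.78 to 0.80, and gas-1, on the X, was the highest.

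Glycolysis had a similar case. The glyceraldehyde-3-phosphate dehydrogenases gpd-1 and gpd-4, both on chromosome II, were at 7.05 ± 0.669 and 0.814 ± 0.190 RPKM in glp-1, against 376 ± 22.6 and 154 ± 9.85 RPKM in TU3401. The other 2 genes of the enzyme, gpd-2 and gpd-3, both on the X, were at 986 ± 145 and 1266 ± 159 RPKM in glp-1, against 180 ± 17.4 and 246 ± 23.6 RPKM in TU3401. The part of the summed RPKM given by gpd-1 and gpd-4 was 0.350% ± 0.029 in glp-1 and 55.5% ± 2.65 in TU3401. Near-identical copies such as gpd-2 and gpd-3, or gpd-1 and gpd-4, can exchange reads in the counting, which does not touch the contrast between these couples if their members are counted together. The sum of all 4 was 2.36 times higher in glp-1.

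Further pairs followed, all with groups that did not overlap, as held for most tested genes. Mitochondrial aspartate aminotransferase had got-2.1 on chromosome I at -4.48 and got-2.2 on the X at 0.51. The MO25 scaffold genes had mop-25.3 at -4.59 and mop-25.2 at -2.17 on autosomes and mop-25.1 on the X at 0.58. Elongation factor 1A had eef-1A.1 on chromosome III at 1719 ± 169 RPKM in glp-1 and 6383 ± 661 RPKM in TU3401, and eef-1A.2 on the X at 794 ± 76.8 RPKM in glp-1 and 372 ± 37.4 RPKM in TU3401. Actin had act-2 on chromosome V at 205 ± 15.8 RPKM in glp-1 and 1250 ± 85.8 RPKM in TU3401, and act-4 on the X at 1596 ± 99.3 RPKM in glp-1 and 528 ± 31.7 RPKM in TU3401, with sums of 1801 ± 113 and 1779 ± 93.7 RPKM. The actin gene act-1 is listed at 0 in all libraries, so the counting of actins is uncertain. Translation factor 5A was the exception on chromosome: iff-1, on chromosome III, fell by 9.52 and iff-2, on chromosome II, rose by 1.23 on the log2 scale. The 13 families plotted by library were picked after their values were seen, for their opposite directions. The groups slc-17, sir-2, djr-1, rab-6 and cln-3, which also had opposite calls, are not among them. In slc-17 2 of the 6 members that rose lay on the X, and in djr-1 and cln-3 none did. In sir-2 a member that fell lay on the X.

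**Figure D3:**
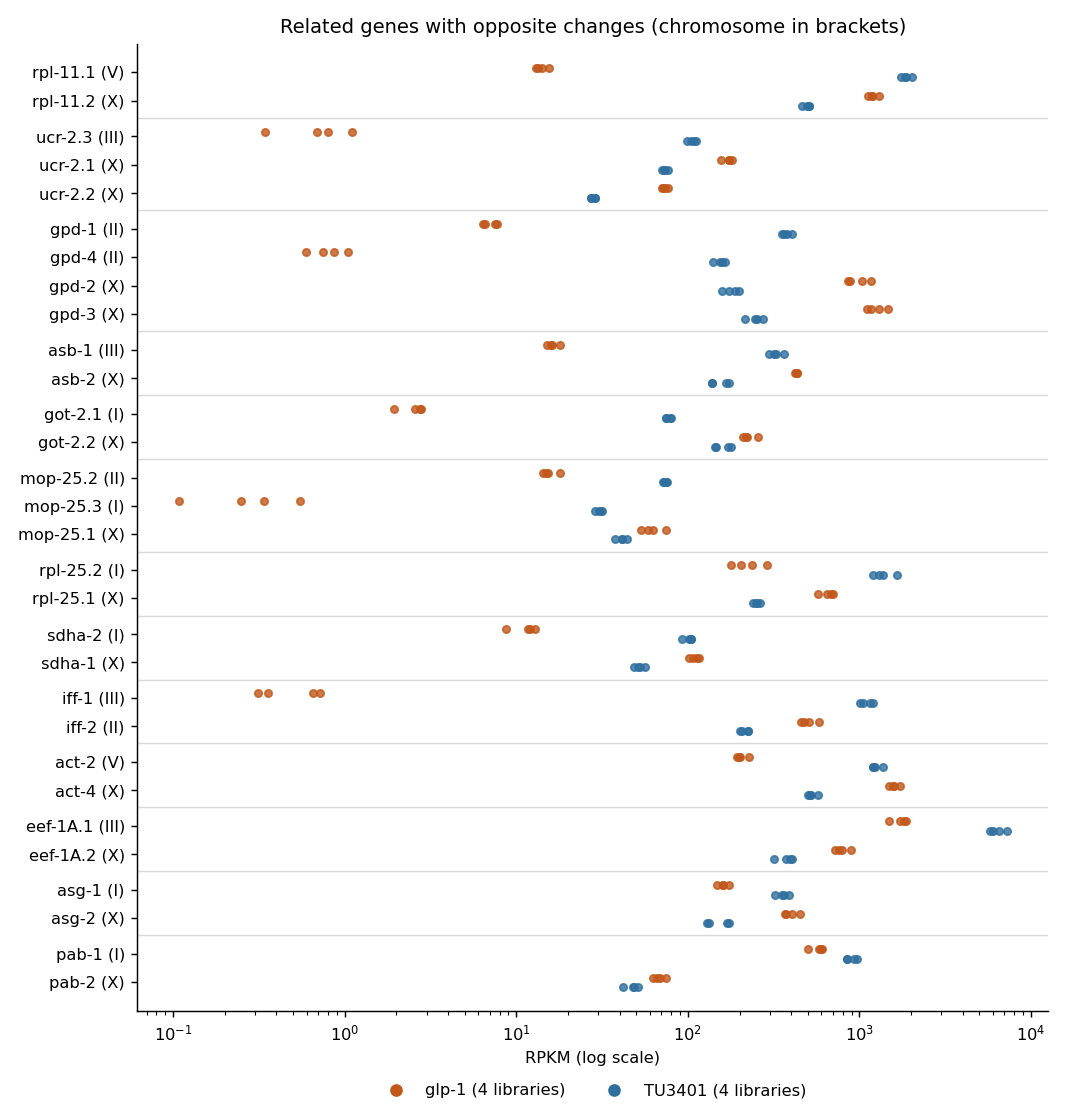
RPKM on a log scale in each of the 4 glp-1 (upper dots of each gene) and 4 TU3401 libraries for 13 families of related genes whose members changed in opposite directions, with the chromosome of each gene in brackets. In 12 of the 13 families every member that was higher in glp-1 lies on the X, the exception being iff-2, and no member that was lower does. The families were picked after their values were seen, and opposite groups that depart from this, such as slc-17, djr-1, cln-3 and sir-2, are not plotted.

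Gene classes, taken as all names with one stem and at least 15 tested members, gave 67 classes. In 6 of them all tested members fell, and in 1, the FMRFamide-like neuropeptides (flp), all 30 rose. Nearly related classes of ubiquitin ligase adaptors divided. The F-box genes of class fbxb fell in all 70 tested cases (median -2.15), but 69 of the 70 were below 1 RPKM in glp-1 and entered the test through TU3401, and 39 more of the 109 in the table were below the filter. Their levels were low in TU3401 too, with a median of 3.69 RPKM. The fbxa class, of the same protein family, rose in 69 of 108 tested cases and fell in 23 (median 0.83). On chromosome III 35 of 43 tested fbxa genes rose and none fell, and on chromosome V 21 of 36 rose and 12 fell. Over all tested genes 29.5% rose and 59.7% fell on chromosome III, and 52.3% rose and 33.7% fell on chromosome V. Of the MATH domain adaptors with a BTB domain (bath) 27 of 31 fell and 2 rose (median -2.97), and 21 of the 31 were below 1 RPKM in glp-1 and entered the test through TU3401. Of the class without that domain (math) 16 of 19 rose and 1 fell (median 1.22), and none was below 1 RPKM in glp-1. Most of both classes lie on the same chromosome, II, where 18 of 21 bath genes fell and 14 of 16 math genes rose. Such clustered families hold near-identical copies, and reads may be shared among them.

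Genes of the transcription machinery fell: all 17 TFIID subunits (taf) and 19 of 20 mediator subunits (mdt), with medians of -2.67 and -2.41. Nuclear hormone receptors (nhr) were the largest class, and 133 of 172 rose and 18 fell (median 0.92). The highest medians were those of the aspartyl proteases (asp, 13 of 15 rose, median 1.79), the saposin-like proteins (spp, 16 of 19, 1.76), the cytochromes P450 (cyp, 45 of 54, 1.56), the flp neuropeptides (1.56) and the other neuropeptide class nlp (33 of 40, 1.38). Collagens (col) were mixed, with 40 of 80 up and 28 down, although 157 col genes together held 5.24% ± 0.500 of reads in glp-1 and 1.41% ± 0.201 in TU3401 (exact permutation p = 0.0286).

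**Figure D4:**
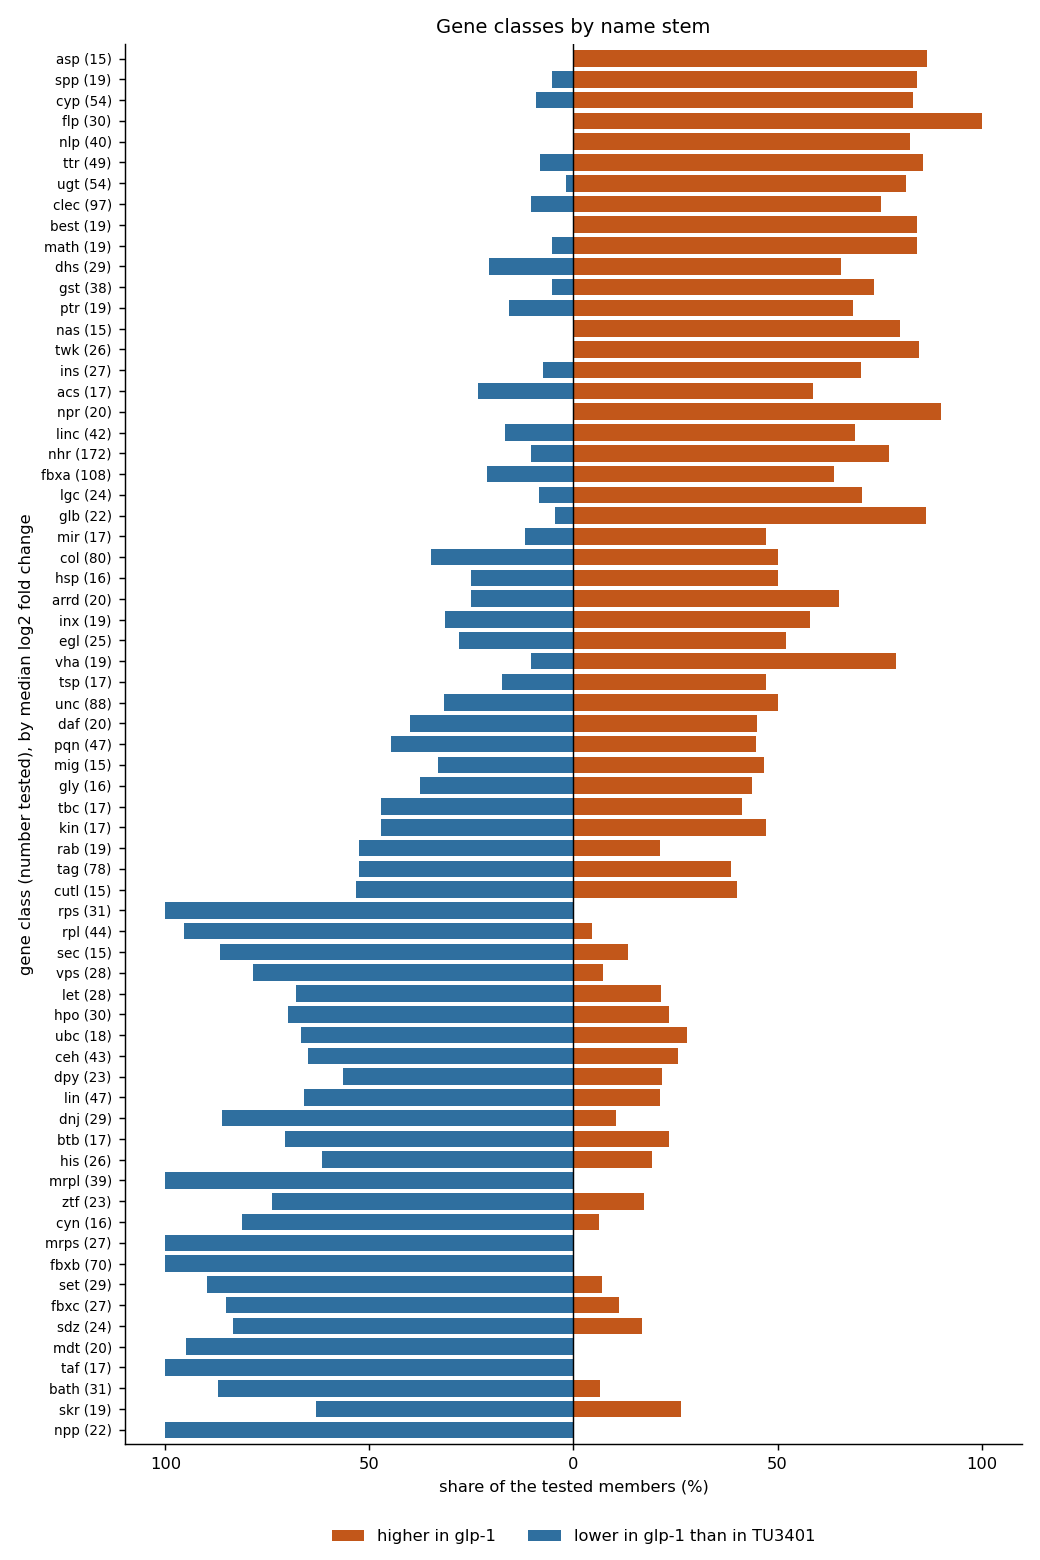
Share of the tested members of 67 gene classes that were higher (right) or lower (left) in glp-1 than in TU3401, ordered from the highest median log2 fold change at the top (asp, 1.79) to the lowest at the bottom (npp, the nucleoporins, -3.34). Numbers in brackets give the members tested, and the contrasts between fbxa and fbxb and between math and bath can be read from their places.

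Innexins build the gap junctions that join sheath cells to germ cells. On the germ cell side inx-14 was at 0.0719, 0.0658, 0 and 0.0281 RPKM in glp-1, against 126, 127, 132 and 139 RPKM in TU3401 (log2 fold change -6.99, SE 0.07, adjusted p = 5.15e-12), and inx-22 and inx-21 fell by 6.50 and 4.29. On the sheath side inx-8 was at 224, 209, 205 and 199 RPKM in glp-1, against 84.6, 100, 110 and 100 RPKM in TU3401 (log2 fold change 1.08, SE 0.09, adjusted p = 2.27e-06), and inx-9 rose by 0.89. No library of one group reached the values of the other for any of these genes. Of all 21 tested innexins 12 rose and 6 fell (median 0.53). Among these 6 were inx-3 (-5.83) and inx-2 (-5.67), both on the X.

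Of 16 tested tubulins and actins 6 (37.5%) rose and 7 (43.8%) fell (median 0.25). As a list they were thus near all tested genes, of which 41.5% rose and 46.1% fell. Among the tubulins tba-1, tba-2, tbb-1 and tbb-2, used throughout cell division, fell by 2.32, 2.04, 2.15 and 1.48 on the log2 scale. The touch neuron tubulins mec-12 and mec-7 rose by 1.26 and 0.50, and tba-4 by 1.62. The 5 markers of uterine secretion all rose: ule-2, listed as F13G11.3, was at 1128, 1312, 1327 and 1395 RPKM in glp-1, against 239, 270, 270 and 257 RPKM in TU3401 (log2 fold change 2.31, SE 0.08), and ule-4, listed as C08F11.11, was at 3931 ± 384 RPKM in glp-1 and 1248 ± 42.2 RPKM in TU3401.

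Of 26 tested genes of steroid and TGF-beta hormone signalling 18 rose, against 41.5% of all tested genes, and 4 fell (median 0.87). The dafachronic acid steroids are needed for the long life of glp-1 worms. Their receptor daf-12 was at 28.6, 25.1, 21.2 and 20.5 RPKM in glp-1, against 5.22, 5.90, 7.2 and 5.37 RPKM in TU3401 (log2 fold change 1.84, SE 0.13, adjusted p = 9.3e-07), and the synthesis gene daf-36 was at 11.7, 22.6, 24.4 and 30.4 RPKM in glp-1, against 4.67, 8.83, 12.2 and 11.6 RPKM in TU3401 (log2 fold change 1.17, SE 0.34, adjusted p = 0.00948). The 4 values of daf-12 in glp-1 stand clear of those in TU3401, while daf-36 overlaps and its replicate 1 is lowest in both groups. The last enzyme, daf-9, was at 1.01 ± 0.247 RPKM in glp-1 and 1.12 ± 0.136 RPKM in TU3401, with no call (adjusted p = 0.566), though with quantile scaling daf-9 passed as higher (log2 fold change 0.39, adjusted p = 0.00833). Of the 4 tested genes of dafachronic acid synthesis daf-36 was the 1 that rose. With quantile scaling all 4 passed as higher, with a median log2 fold change of 0.56 beside 0.42 over all tested genes. In the TGF-beta branch 4 of 5 ligands and 2 of 4 receptors rose and the others fell, and 9 of 10 Smads and cofactors rose, sma-3 by 1.35 and the body size regulator lon-1 by 2.23, while the receptor daf-1 fell by 1.41.

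Of 37 tested genes of developmental timing and molting 23 fell and 10 rose (median -1.43), with 9 of the 37 below 1 RPKM in glp-1 and 1 in TU3401. With a mean of at least 10 RPKM, which tests fewer genes, 11 fell and 6 rose. The cuticle collagen dpy-7 was at 0.049, 0.269, 0.0441 and 0.115 RPKM in glp-1, against 23.8, 16, 18 and 14.5 RPKM in TU3401 (log2 fold change -4.07, SE 0.16, adjusted p = 1.07e-08), and sqt-3, another collagen of the early cuticle, was at 20.9 ± 4.05 RPKM in glp-1 and 258 ± 31.3 RPKM in TU3401. The molting receptor nhr-23 (-2.96), the hedgehog-like wrt-10 (-3.87) and the molting protein mlt-10 (-2.61) fell too. The timing gene lin-41 fell by 5.99 and lin-28 by 2.05, and lin-29, which drives the change to adult skin, rose by 1.49. The adult collagen col-19 was at 803, 879, 846 and 1106 RPKM in glp-1, against 336, 259, 367 and 440 RPKM in TU3401. Egg-bearing adults carry embryos, which make their first cuticle in the egg, and the part of embryos in these values was not tested.

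Fat genes rose in 39 of 52 tested cases and fell in 10 (median 1.5), and the list as a whole held 7.85% ± 0.460 of reads in glp-1 and 2.4% ± 0.0724 in TU3401 (SD, n = 4 each; exact permutation p = 0.0286). That p is the smallest possible and was reached by every gene group compared, so it does not set fat genes apart. The secreted lipid carrier far-3 was at 2725, 3206, 3348 and 3000 RPKM in glp-1, against 40.9, 105, 43.5 and 50.6 RPKM in TU3401 (log2 fold change 5.76, SE 0.27, adjusted p = 5.16e-08), and far-2 had the highest RPKM of all genes in the comparison that are named here, at 20941 ± 1015 in glp-1 and 5619 ± 331 in TU3401. Of the stearic and palmitic acid desaturases, which make oleic and palmitoleic acid, fat-6 rose by 2.26 and fat-5 by 2.80. The third, fat-7, close in sequence to fat-6, was at 7.62, 5.23, 3.78 and 0.975 RPKM in glp-1, against 16.5, 7.46, 9.06 and 4.43 RPKM in TU3401 (adjusted p = 0.0822). With a replicate block, which compares libraries of the same number, fat-7 passed as lower (adjusted p = 0.00145). It was lower in glp-1 in each of the 4 pairs.

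Lipases changed in both directions. The lysosomal lipases lipl-2 (3.14), lipl-4 (2.78) and lipl-5 (2.19) rose, and lipl-5 reached 2052 ± 273 RPKM in glp-1, against 448 ± 49 RPKM in TU3401. The lipase of fat droplets, atgl-1, fell by 1.66 (SE 0.19, adjusted p = 2.98e-05) to 24.7, 25.6, 17.2 and 13.6 RPKM in glp-1, against 58.5, 73.8, 67.2 and 59.1 RPKM in TU3401. Fatty acid binding protein genes divided too: lbp-8 rose by 2.14, and lbp-9 and lbp-4 fell by 3 and 2.33. Triglyceride synthesis by dgat-2 (2.26) and lipoprotein assembly by dsc-4 (2.31) rose. The nuclear receptor nhr-80, which is needed for the long life of glp-1 worms, rose by 1.76, and nhr-49, a partner in fat metabolism, had no call (log2 fold change 0.30, adjusted p = 0.245).

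Genes of sugar metabolism mostly rose. In glycolysis and gluconeogenesis 18 of 23 tested genes rose and 3 fell (median 0.89), and the list held 1.56% ± 0.203 of reads in glp-1 and 0.617% ± 0.0332 in TU3401. The first committed gene of gluconeogenesis, pck-1, was at 781, 797, 680 and 634 RPKM in glp-1, against 83.2, 89.7, 62.5 and 60.7 RPKM in TU3401 (log2 fold change 3.29, SE 0.14, adjusted p = 2.81e-08). The glyoxylate enzyme icl-1, which turns fat into sugar precursors, was at 1001, 981, 530 and 513 RPKM in glp-1, against 137, 125, 80.8 and 62.3 RPKM in TU3401 (log2 fold change 2.89, SE 0.32). In both groups icl-1 and pck-1 were higher in replicates 1 and 2 than in 3 and 4. Of 20 genes of osmolytes and sugar stores 13 rose and 3 fell (median 1.02). The trehalose synthases tps-2 (2.77) and tps-1 (2.28) and the trehalase tre-4 (2.55) rose. The hexokinase hxk-1, listed as F14B4.2, fell by 2.42 and the glycogen phosphorylase pygl-1, listed as T22F3.3, by 0.98.

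The methyl cycle, which makes S-adenosylmethionine, had 6 of 21 tested genes up and 6 down, with a median of 0.03, and the direction of this list depended on the scaling. With median-ratio scaling the counts were the same and the median was -0.04, and with quantile scaling 13 were up and 5 down, with a median of 0.75. Within it sams-3 (-3.12) and the methionine synthase reductase mtrr-1 (-2.94) fell, sams-1 had no call (0.16, adjusted p = 0.505), and the phosphatidylcholine methyltransferases pmt-1 and pmt-2 rose by 1.33 and 1.16. The cysteine synthesis gene cth-2 rose by 2.21. Pheromone synthesis was more uniform: 8 of 9 genes of ascaroside side-chain shortening rose (median 1.76), among them the thiolase daf-22 (1.64), the dehydrogenase dhs-28 (1.76) and the oxidase acox-1.2, listed as F08A8.2, at 166, 45, 65.7 and 72.5 RPKM in glp-1, against 16.9, 3.58, 3.57 and 4.36 RPKM in TU3401. The remaining gene, another oxidase, had a log2 fold change of -0.59 with no call. It passed as lower with a replicate block, which compares libraries of the same number. Of 9 genes of propionate breakdown 6 rose and none fell (median 0.99), with all 4 of the B12-dependent route among those that rose. Of its shunt, acdh-1 had no call and differed more between replicates than between groups, at 67.0, 8.36, 23.7 and 30.5 RPKM in glp-1, against 8.55, 82.0, 41.6 and 55.5 RPKM in TU3401.

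Genes of digestion and metal handling mostly rose. Of 24 proteases and gut transporters 21 rose and none fell (median 1.35), led by asp-14 (3.28) and, by level, the cathepsin cpr-6, at 3898, 2769, 3114 and 2526 RPKM in glp-1, against 988, 909, 801 and 777 RPKM in TU3401. Of 17 metal handling genes 12 rose and 2 fell (median 1.1). The iron store ferritin has 2 genes: ftn-1 was at 807, 370, 371 and 157 RPKM in glp-1, against 15.7, 10.7, 3.45 and 3.48 RPKM in TU3401 (log2 fold change 5.53, SE 0.58, adjusted p = 1.57e-05), and ftn-2 was at 872 ± 67.6 RPKM in glp-1 and 328 ± 19 RPKM in TU3401 (log2 fold change 1.41). The metallothionein mtl-1 rose by 4.33 and mtl-2 by 1.1. For mtl-2, with 363 to 1104 RPKM in glp-1 and 284 to 416 RPKM in TU3401, the groups overlap, and with quantile scaling it did not pass (adjusted p = 0.0717).

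Of 23 tested genes of nutrient signalling 7 rose and 13 fell (median -0.57), and with quantile scaling 11 rose and 10 fell (median -0.22). All 8 tested genes of the TOR branch fell (median -1.17), including the kinase let-363 (-1.13) and its partner mlst-8 (-2.51), listed as C10H11.8. Of the AMPK subunits 5 of 8 rose and 1 fell, and with quantile scaling all 8 rose. Among them were aak-2, at 65.6, 71.9, 51.8 and 52.3 RPKM in glp-1 against 32.9, 34.8, 34.7 and 29.3 RPKM in TU3401 (log2 fold change 0.85), and aakg-4 (2.46). In the insulin branch the kinase age-1 fell by 2.96 and the receptor daf-2 by 1.22. With quantile scaling daf-2 did not pass (adjusted p = 0.131). Of the AKT kinases akt-2, on the X, rose by 2.2, and akt-1, on chromosome V, fell by 0.65 with overlapping groups and did not pass with quantile scaling (adjusted p = 0.0645).

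Large rises among abundant genes were read beside the other glp-1 libraries of the series, which had mml-1 or mxl-2 RNAi. The short gene F56D6.9 was at 2881, 2701, 3569 and 2178 RPKM in glp-1, against 84.7, 54, 21.9 and 20.8 RPKM in TU3401 (log2 fold change 6.15, SE 0.43, adjusted p = 8.67e-07), and its neighbour by name F56D6.8 rose by 5.36. In the 8 glp-1 libraries on the other RNAi, F56D6.9 lay between 1014 and 3143 RPKM. Larger rises were those of scl-20 (8.08), H39E23.3 (7.69), clx-1 (7.56), dhs-26 (6.73) and C30G12.2 (6.24). The T22B7.7 gene rose by 4.99, the methyltransferase-like comt-4 by 5.67, the collagen col-139 by 4.74 and the cytochrome P450 cyp-34A9 by 4.33. F54F7.2, on the X, was at 233, 294, 271 and 263 RPKM in glp-1, against 6.58, 8.89, 7.86 and 6.25 RPKM in TU3401 (log2 fold change 4.99, SE 0.12, adjusted p = 4.37e-10), and at 159 to 271 RPKM in those 8 libraries. Of the 15 largest falls among abundant genes, beside sip-1, were the lectin-like clec-87 (-10.70) and clec-88 (-9.32), the Y-box proteins cey-2 (-10.29) and cey-3 (-9.28), the eggshell protein cpg-1 (-10.06), the translation regulator pos-1 (-9.70), iff-1 (-9.52), nasp-2 (-9.32) and the glutamine synthetase gln-6 (-9.21).

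Libraries within a group were less alike in glp-1 than in TU3401. Of 8478 genes with a mean of at least 10 RPKM, 6175 had the larger SD of log2(RPKM + 1) in glp-1, with a median SD of 0.17 in glp-1 and 0.10 in TU3401. An SD above 1 was seen in 75 of these genes in glp-1 and in 37 in TU3401. Of the 75, 31 were highest in glp-1 replicate 1, 23 in replicate 2, 3 in replicate 3 and 18 in replicate 4. The gene R09E10.13 was at 68.6, 1.04, 0.512 and 1.34 RPKM in glp-1, against 1.29, 0.260, 1.61 and 0.942 RPKM in TU3401. It was high in 1 library of 8, with no call (adjusted p = 0.301). The secreted protein scl-19 (44.2, 0.413, 3.79 and 0 RPKM in glp-1) and the protease asp-18 (38.2, 0.655, 5.59 and 0.0312 RPKM in glp-1) were likewise highest in replicate 1 and next in replicate 3, and at or near 0 in TU3401.

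Other variable genes followed the replicate number in both groups. The lectin-like clec-258 was at 192, 2.09, 48.5 and 54.6 RPKM in glp-1, against 18.4, 0.251, 8.90 and 6.74 RPKM in TU3401, lowest in replicate 2 of each. The arginine kinase argk-1, listed as F44G3.2, was at 248, 4.68, 91.9 and 118 RPKM in glp-1, against 87.3, 2.91, 44.1 and 30.9 RPKM in TU3401, lowest in the same replicate. Neither clec-258 (adjusted p = 0.1) nor argk-1 (F44G3.2, adjusted p = 0.383) passed, but with the replicate block both passed as higher in glp-1 (adjusted p = 0.000572 for clec-258 and 0.00238 for argk-1). The dehydrogenase dhs-26 and C30G12.2 were highest in replicate 1 of both groups.

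**Figure D5:**
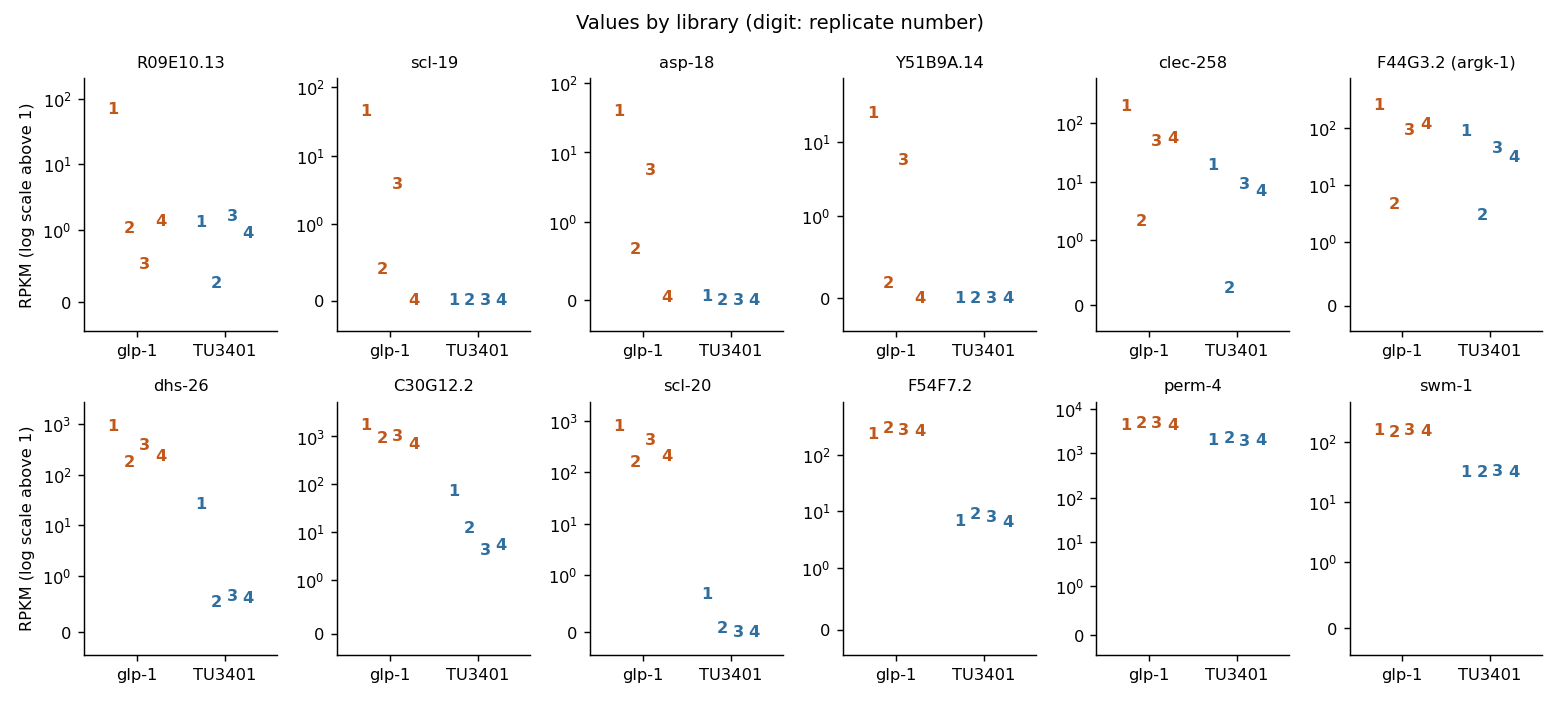
RPKM in each library, glp-1 left and TU3401 right, with a digit for the replicate number, for 9 genes with a large spread within groups and 3 steady ones (F54F7.2, perm-4 and swm-1); the axis is logarithmic above 1 RPKM and linear below. R09E10.13, scl-19, asp-18 and Y51B9A.14 are highest in glp-1 replicate 1, and clec-258 and argk-1 are lowest in replicate 2 of both groups.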

How the data were processed

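The authors deposited RPKM values per gene for 16 libraries, per the file headers, of which the 8 described here were used. TopHat2 2.1.1 and bcl2fastq stand in the submitters' processing notes. Those notes name the human build GRCh38, so for these worms the build, like the use of strand in counting, counts as not given in the sources used here. Gene lengths worked back from the values are mostly coding lengths (91.88% are multiples of 3). Whole reads were recovered for 25332 of the 25332 genes above 0, within a tolerance of 0.001 reads, and 1 read in a gene of 1 kb was worth 0.0367 to 0.0531 RPKM. Genes with a mean of at least 1 RPKM over the 8 libraries (13563 of 42048) were tested on log2(RPKM + 1) with limma 3.58.1 in R 4.3.3 (trended, robust variances, Benjamini-Hochberg adjustment, threshold 0.05), after the code was tested on simulated data. Of the tested genes 1503 were below 1 RPKM in glp-1 and 912 below 1 RPKM in TU3401. Shares of reads were compared by exact 2-sided permutation over the libraries (smallest p 0.0286) with scipy 1.17.1. Chromosomes came from Ensembl release 115 by gene name, 909 names had no match, and 11 names are date-like. Libraries of the same number deviated together from their group means (correlations 0.12 to 0.265), and having every one above 0.1 was the rule for taking them as pairs. Some unlike numbers correlated as much, glp-1 3 with TU3401 4 at 0.24, glp-1 2 with TU3401 1 at 0.144 and glp-1 4 with TU3401 3 at 0.127, so libraries 3 and 4 are not told apart by it. The numbers met this rule, but the main fit and the permutation tests did not use the pairs, so their p-values are unpaired. A fit with the replicate block, which uses the pairs, was an alternative. No 2 libraries agreed within sampling noise (lowest chi-square per degree of freedom 9.6). Other alternatives were the pseudocount, the filter, quantile and median-ratio scaling, voom on recovered reads, all 4 groups in 1 fit, protein-coding genes alone and leaving out each library. Named genes were the key genes of each list, up to 4 called genes a direction per list, the 15 largest changes in each direction among abundant genes, related genes with opposite calls, the 10 most variable genes of each group, the 10 with most reads and the study's target genes. The members and lists were chosen with earlier results of these data known. A gene of the nutrient signalling list is not reported here by name.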

Additional observations from a re-analysis of the deposited data

Results flagged for a closer look

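In 20 of 416 groups of 4 libraries examined for the named genes and shares of reads, 1 library stood so far from the other 3 that its gap to them, as a part of the group's range, exceeded the 95% critical value of Dixon's test, and chance gives about 5% of groups. Replicate 1 was the library concerned in 13 of the 20. In glp-1 replicate 1 was highest for R09E10.13 (68.6 RPKM), scl-19 (44.2 RPKM), asp-18 (38.2 RPKM) and sams-3 (5.51 RPKM), and lowest for daf-22 (107 RPKM, against 167 to 172 RPKM in the other glp-1 libraries). In TU3401 replicate 1 was highest for C30G12.2 (71.8 RPKM), T22B7.7 (176 RPKM), dhs-26 (25.9 RPKM), acox-1.2 (F08A8.2, 16.9 RPKM), scl-20 (0.665 RPKM) and H39E23.3 (0.261 RPKM). Elsewhere far-3 (105 RPKM) and glp-1 (75.6 RPKM) were highest in TU3401 replicate 2, exc-7 was lowest in TU3401 replicate 4 (8.33 RPKM), and sup-12 was lowest in glp-1 replicate 3 (23.3 RPKM). The remaining values rest on a few reads. In glp-1 they were cbd-1 (0.130 RPKM), puf-11 (0.0242 RPKM) and spe-44 (0.0288 RPKM) in replicate 4 and fbf-1 (0.0254 RPKM) in replicate 1, and in TU3401 asp-18 (0.0451 RPKM) in replicate 1. Whether replicate 1 differs from the other replicates beyond this choice of genes was not tested.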

How the results depend on the processing

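The count of lower genes stayed within 1.5 times its value of 6253 under every alternative run. The count of higher genes did too, except with a mean of at least 10 RPKM, which tests fewer genes, 8478, and left 3071 higher genes and 2354 at least 2-fold higher. Quantile scaling gave 6730 higher and 5488 lower genes, and leaving out 1 library at a time gave 5439 to 5688 higher and 6162 to 6273 lower genes. With the replicate block, which takes libraries of the same number as pairs, 5729 genes were higher and 6275 lower, and of the named genes fat-7, clec-258 and argk-1 came to pass while no other call changed. Of 185 named genes 4 changed direction with quantile scaling: alg-1 (0.41), daf-9 (0.39), vit-2 (-0.15) and vit-6 (-0.11), and the cause was not tested. Of these alg-1 passed in both directions, vit-2 and vit-6 no longer passed and daf-9 came to pass. Among the named genes that kept their direction akt-1, daf-2 and mtl-2 no longer passed, and asp-18, nhr-49 and sams-1 came to pass. Depth limits the genes at or near 0 in glp-1, where a few reads set the value.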
